A study of Mus musculus with 6 samples.

Results

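The miR-200 family and miR-205 are miRNAs of epithelial cells, and 10 of their mature arms were followed in small RNA-seq data of the embryonic mouse brain. The 10 were taken by name from the 1915 mature miRNAs listed: both arms of miR-200a, miR-200b, miR-200c and miR-141, and miR-429-3p and miR-205-5p. They were chosen with their higher counts in the male libraries already known, so their levels and sex differences are given as a description and no p is attached to them. The data were 6 libraries of whole brain RNA from untreated C57BL/6 wild-type mice at embryonic stage E15.5, 3 female and 3 male, which address whether miRNA levels differ between the sexes after the gonads have formed. Embryos were sexed by their gonads, those with testicular cords being taken as male. Each library held RNA pooled from 2 to 3 individuals, so that the spread between libraries is a spread between pools.

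miRNAs are short RNAs cut from a hairpin precursor, of which either side, the 5p or the 3p arm, can be kept as the mature strand. Bases 2 to 8 from the 5′ end, the seed, pair with target mRNAs and largely decide which mRNAs are repressed. The miR-200 family is best known for repression of Zeb1 and Zeb2, transcription factors that silence E-cadherin, and its members keep epithelial cells in the epithelial state. miR-205 is abundant in skin and other stratified epithelia and also targets Zeb1 and Zeb2. In the head, such epithelia include the epidermis, the oral, nasal and otic linings and the ducts of glands, while most neurons carry little of either.

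All 10 members were matched in the RefSeq table of mature miRNAs (GRCm38.p6). The sequences are shown because the family splits by its seed. They run 5′ to 3′ with the seed in capitals. The 3 arms of the first seed group carry AAUACUG.
miR-200b-3p: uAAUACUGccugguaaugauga
miR-200c-3p: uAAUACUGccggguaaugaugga
miR-429-3p: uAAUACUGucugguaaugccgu

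The second seed group, AACACUG, has 2 arms.
miR-200a-3p: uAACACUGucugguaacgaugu
miR-141-3p: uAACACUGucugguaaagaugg

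miR-205-5p has a seed unrelated to either, and the 5p arms of miR-200a and miR-200b share a seed of their own.
miR-205-5p: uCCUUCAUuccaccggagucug
miR-200b-5p: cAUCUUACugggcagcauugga
miR-200a-5p: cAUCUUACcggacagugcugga

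With positions counted from 1 at the 5′ end, miR-200b-3p and miR-200a-3p differed at U4C, C9U, U17C and A22U, of which U4C is the difference inside the seed. Within the first seed group, miR-200b-3p and miR-200c-3p differed at U11G and A22G, and miR-200c-3p is longer by a base. miR-200b-3p and miR-429-3p differed at C9U, A19C, U20C and A22U. Within the second seed group, miR-200a-3p and miR-141-3p differed at C17A and U22G. No other of the 1679 mature mouse miRNAs in the table carries any of these 4 seeds. The mismatches allowed when reads were assigned are not given in the sources used here, so that the sharing of reads between such near-identical arms was not tested.

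The family is encoded at 2 loci, and miR-205 at another. In mm9 (NCBIM37), Mir200b (chr4:155429790-155429859), Mir200a (chr4:155429005-155429094) and Mir429 (chr4:155428014-155428096) lie on the minus strand within 1846 bases, inside an intron of the protein-coding gene Ttll10. They also overlap the processed transcript Gm13648, of which Mir200b and Mir200a are intronic and Mir429 exonic. Mir200c (chr6:124668340-124668408) and Mir141 (chr6:124667932-124668003) lie on the minus strand within 477 bases, in an intron of the processed transcript Gm15884. The nearest protein-coding gene there is Phb2, 964 bases from Mir141 on the opposite strand. Mir205 (chr1:195333657-195333724) lies on the minus strand in an exon of the lincRNA 4631405K08Rik, 137166 bases from the nearest protein-coding gene, Camk1g.

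The files gave 14802675 to 59362011 reads on miRNAs per library, and levels are given as CPM, the count divided by that total and multiplied by 1000000. Mature arms are close to equal in length (22 or 23 bases here) and a read covers the whole molecule, so no length scaling was used between miRNAs. Differences in ligation between sequences are not corrected by this unit. Female library 2 stood apart: it was the deepest and had reads on 660 miRNAs, against 790 to 915 in the other 5, and the count at the 10th percentile of its detected miRNAs was 138 reads, against 11 to 21. The label of the tissue was checked on neural miRNAs: miR-9-5p, a miRNA of neural progenitors, stood at 175466 to 195822 CPM in female and 148598 to 174797 CPM in male libraries.

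The 10 members together took between 0.0431% and 0.114% of the reads in female libraries and between 0.808% and 0.839% in male libraries. Their sum was 701 ± 385 CPM (SD, n = 3) in females and 8244 ± 158 CPM (SD, n = 3) in males, a ratio of means of 11.8. Of the 10, 9 passed the filter of at least 10 reads summed over the 6 libraries, 7 had a read in every library, and miR-200c-5p had no read in any. The sexes did not overlap for 7 of the 9, each with every male library above every female library. This was so for 15.4% of the 1120 miRNAs that passed the filter. In bulk RNA, fewer cells of a type and less RNA per cell cannot be told apart.

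**Figure D1:**
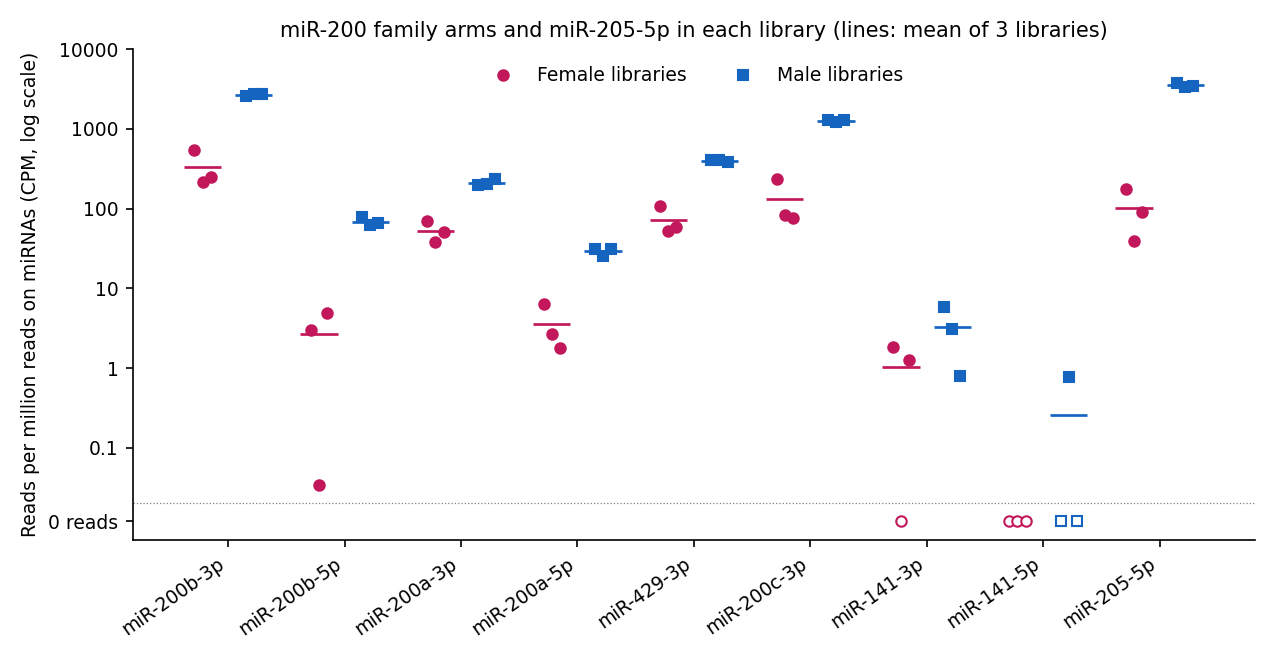
Levels in CPM (log scale) of the 9 members with reads, in 3 female libraries (circles) and 3 male libraries (squares), with the mean of each sex as a line and libraries without a read drawn open at the bottom. The 3 male libraries of each of the 7 separated arms lie close together and above the female libraries, while miR-141-3p overlaps between the sexes.

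The first seed group held most of the miR-200 reads. mmu-miR-200b-3p, the leading arm of the chromosome 4 locus, had 543, 216 and 247 CPM in females 1, 2 and 3 and 2586, 2759 and 2757 CPM in males 1, 2 and 3, the library order used throughout. The highest female library, library 1, was below every male library, and the males spanned a much narrower range than the females. mmu-miR-200c-3p, from chromosome 6, was at 234, 82.6 and 75.6 CPM in females and at 1290, 1212 and 1313 CPM in males. Female library 1 was again the high one of its sex. mmu-miR-429-3p, the last hairpin of the chromosome 4 locus, was at 108, 52.4 and 58.8 CPM in females and at 403, 409 and 384 CPM in males, with female library 1 the highest of its sex once more. Summed over the 3 arms, the AAUACUG seed stood at 539 ± 300 CPM (SD, n = 3) in females and 4371 ± 87.4 CPM (SD, n = 3) in males, a ratio of means of 8.11.

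Summed, the second seed group was less abundant and less unequal, and it was almost wholly miR-200a-3p. The arms did not divide cleanly by seed. By ratio of means, miR-429-3p of the first group (5.46) was nearer to miR-200a-3p (4.04) than to miR-200b-3p (8.05) or miR-200c-3p (9.74). mmu-miR-200a-3p was at 69.5, 37.8 and 50.4 CPM in females and at 199, 204.6 and 234 CPM in males. The groups did not overlap, and female library 1 was the highest of its sex. mmu-miR-141-3p had 27, 0 and 45 reads in females and 110, 135 and 19 reads in males, or 1.82, 0 and 1.26 CPM against 5.89, 3.07 and 0.804 CPM. Male library 3 lay below 2 of the female libraries, so that the sexes overlapped for this arm. Summed over both arms, the AACACUG seed stood at 53.6 ± 16.9 CPM (SD, n = 3) in females and 216 ± 16.8 CPM (SD, n = 3) in males, a ratio of means of 4.03. The AACACUG seed thus made up 7.46%, 9.70% and 11.9% of the reads of both seed groups in female libraries and 4.57%, 4.52% and 5.02% in male libraries, without overlap.

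mmu-miR-205-5p had the highest ratio between the sexes among the members with a read in every library. Its level was 177, 39.3 and 89.7 CPM in females and 3799, 3401 and 3475 CPM in males. The lowest male library was 19.2 times the highest female library, and the ratio of the means was 34.9. Female library 2 was the lowest for this miRNA, while female libraries 2 and 3 were closer to each other for the abundant 3p arms of the miR-200 family.

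The fitted log2 fold changes, male over female, came from edgeR with TMM scaling over all 1120 miRNAs, and each is given with its standard error in parentheses. The value was 5.04 (0.35) for miR-205-5p, 3.18 (0.30) for miR-200c-3p, 2.91 (0.27) for miR-200b-3p, 2.35 (0.24) for miR-429-3p and 1.91 (0.24) for miR-200a-3p. At an adjusted threshold of 0.05 (edgeR, quasi-likelihood), 7 of the 9 members tested passed as higher in males, against 3.21% of the 1120 miRNAs. None was lower in males. Because the members were chosen on this contrast, the count is a description of the choice. In either direction 8.48% of the 1120 miRNAs passed, and the median log2 fold change was 2.91 over the 9 members and -0.02 over the 1120. Without female library 1, the high female library, the values were 5.68 for miR-205-5p, 3.90 for miR-200c-3p and 3.44 for miR-200b-3p. Without female library 2, the value for miR-205-5p was 4.67.

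The minor arms followed at lower levels. mmu-miR-200a-5p was at 6.35, 2.71 and 1.79 CPM in females and at 31.3, 25.2 and 31.1 CPM in males, and the fitted log2 value was 2.91 (0.56), without overlap. Without female library 1 it was 3.59. mmu-miR-200b-5p had 45, 2 and 175 reads in females and 1457, 2769 and 1547 reads in males, or 3.04, 0.0337 and 4.89 CPM against 78.0, 63.0 and 65.5 CPM, and the fitted log2 value was 4.62 (0.77). The 2 reads in female library 2 were the low point. At 0.559%, the lowest ratio of 5p to 3p reads in the other 5 libraries, that library would hold 71.9 reads of this arm. Without it, the log2 fold change of miR-200b-5p was 4.02, and without female library 3, the highest female, it was 5.54. Of all members, these 2 arms alone fell below the threshold when male library 1 was left out, with 5 of 9 members then above it.

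The remaining arms of these hairpins were at the limit of detection, except miR-205-3p in males. miR-141-5p had 34 reads in male library 2 and none in the other 5, so that its male mean rested on that library. The male mean was 9.46 times a floor of 3 counts over the summed female reads. That floor counts the full depth of female library 2, in which few miRNAs had low counts, and is not a firm bound. miR-200c-5p and miR-429-5p had no read, and 3 counts correspond to 0.0505 CPM in the deepest library and 0.203 CPM in the shallowest. miR-205-3p, the other arm of the miR-205 hairpin, had 18, 0 and 0 reads in females and 92, 246 and 51 in males. In CPM its level was 1.22, 0 and 0 in females and 4.92, 5.60 and 2.16 in males, with every male library above every female library. Per read of miR-205-5p its reads were 0.687%, 0% and 0% in females and 0.130%, 0.165% and 0.0621% in males. The ratio of the arms thus overlapped between the sexes.

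The order of the levels differed between the sexes in which miRNA came first and, by means, in the order of miR-200a-5p and miR-200b-5p. In male libraries it was miR-205-5p, miR-200b-3p, miR-200c-3p, miR-429-3p, miR-200a-3p, miR-200b-5p, miR-200a-5p and miR-141-3p, and the ranges of no neighbours overlapped. In female libraries the means ran miR-200b-3p, miR-200c-3p, miR-205-5p, miR-429-3p and miR-200a-3p, and the range of each overlapped that of the next. Lower down, the female mean of miR-200a-5p (3.62 CPM) was above that of miR-200b-5p (2.65 CPM). Their ranges overlapped, and miR-200a-5p was the higher in 2 of the 3 female libraries. Within each female library, miR-200b-3p nevertheless exceeded miR-200c-3p by 2.33 to 3.26 times and miR-429-3p exceeded miR-200a-3p by 1.17 to 1.55 times. miR-205-5p was above miR-200c-3p in 1 of the 3 female libraries, with ratios of miR-200c-3p to miR-205-5p from 0.843 to 2.10, and the 2 cannot be ordered there. Among all miRNAs, the 5 leading arms ranked between 46 and 208 in male libraries and between 127 and 312 in female libraries.

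The members did not differ by a common factor. miR-205-5p took 15.49%, 9.12% and 16.9% of the reads of the 10 in female libraries and 45.3%, 42.1% and 42.1% in male libraries. miR-200b-3p took 47.6%, 50.2% and 46.6% in females and 30.8%, 34.2% and 33.4% in males. The share of miR-429-3p was 9.43% to 12.1% in females and 4.64% to 5.07% in males, and that of miR-200a-3p was 6.08% to 9.53% in females and 2.37% to 2.84% in males. These 4 shares were separated between the sexes, whereas the share of miR-200c-3p was 14.3% to 20.4% in females and 15.004% to 15.9% in males. In CPM, the difference of the means, male minus female, was 3456 for miR-205-5p, 2365 for miR-200b-3p, 1141 for miR-200c-3p, 326 for miR-429-3p and 160 for miR-200a-3p.

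**Figure D2:**
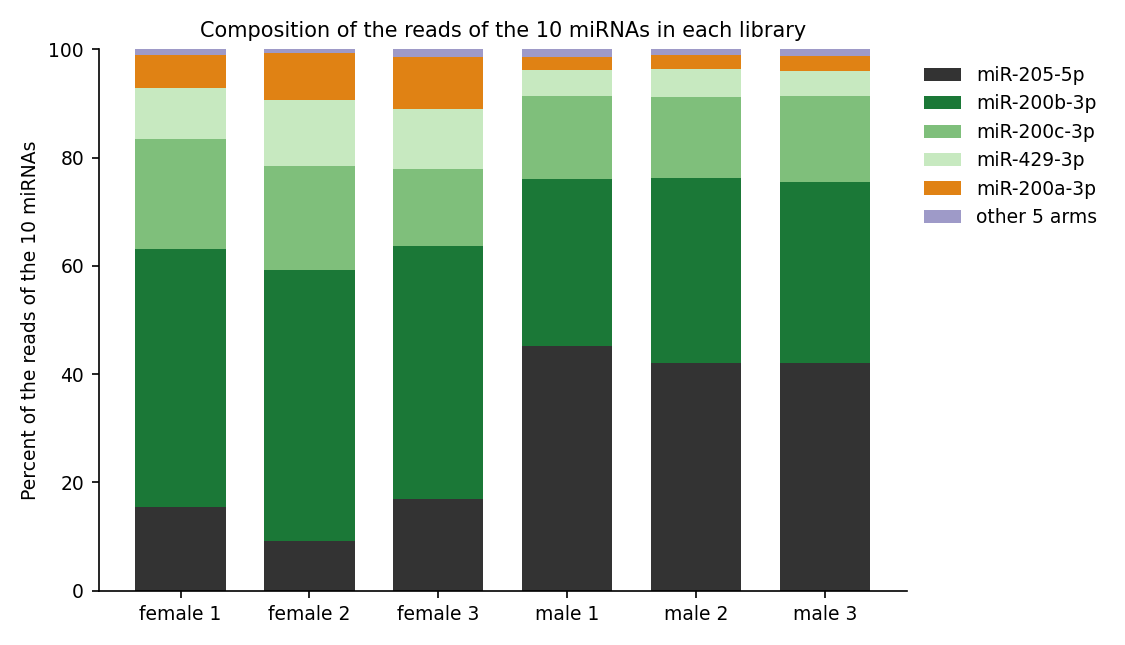
Percent of the reads of the 10 members that fell on each miRNA in each library, as stacked bars. miR-205-5p held 9.12% to 16.9% in the female libraries and 42.1% to 45.3% in the male libraries, and miR-200b-3p was the largest share in each female library.

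Ratios within a library do not depend on its depth or scaling, and several of them differed between the sexes without overlap. At the chromosome 4 locus, where the 3 hairpins lie close together, miR-200b-3p exceeded miR-429-3p by 5.04, 4.13 and 4.20 times in female libraries and by 6.41, 6.74 and 7.19 times in male libraries. miR-200b-3p exceeded miR-200a-3p by 7.82, 5.73 and 4.89 times in females and by 13.0, 13.5 and 11.8 times in males. The ratio of miR-429-3p to miR-200a-3p was 1.55, 1.39 and 1.17 in females and 2.03, 2.00 and 1.64 in males. Arms of neighbouring hairpins were therefore unequal in their sex ratio, with miR-200b-3p the most and miR-200a-3p the least male-biased of the 3.

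Between the loci, the ratio of miR-200b-3p to miR-200c-3p ran the other way, at 2.33, 2.62 and 3.26 in females and 2.01, 2.28 and 2.10 in males, a gap much smaller than its spread among the females. Summed over their arms, the chromosome 4 locus stood at 467 ± 229 CPM (SD, n = 3) in females and 3410 ± 97.6 CPM (SD, n = 3) in males, a ratio of means of 7.30, and the chromosome 6 locus at 132 ± 89.9 and 1275 ± 51.9 CPM (SD, n = 3), a ratio of 9.69. The ratio of miR-205-5p to miR-200b-3p was 0.326, 0.182 and 0.363 in females and 1.47, 1.23 and 1.26 in males. With the GC offset the fitted log2 values were 3.44 for miR-200c-3p, 3.43 for miR-200b-3p and 4.74 for miR-205-5p. Without it they were 3.18, 2.91 and 5.04, so that these gaps were smaller with the offset.

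The balance of the arms also differed, and by less with the GC offset. With it the fitted log2 values of the 5p and 3p arms were 2.65 and 2.27 for miR-200a and 4.57 and 3.43 for miR-200b. Without it they were 2.91 and 1.91 for miR-200a and 4.62 and 2.91 for miR-200b. Reads of miR-200a-5p per read of miR-200a-3p were 9.14%, 7.18% and 3.54% in females and 15.7%, 12.3% and 13.2% in males. For miR-200b the same ratio was 0.559%, 0.0156% and 1.98% in females and 3.02%, 2.28% and 2.37% in males, of which the female value of 0.0156% rests on 2 reads. Neither overlapped between the sexes. The ratio of miR-141-3p to miR-200c-3p, arms of a single locus, was 0.781%, 0% and 1.66% in females and 0.457%, 0.254% and 0.0613% in males and did overlap.

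**Figure D3:**
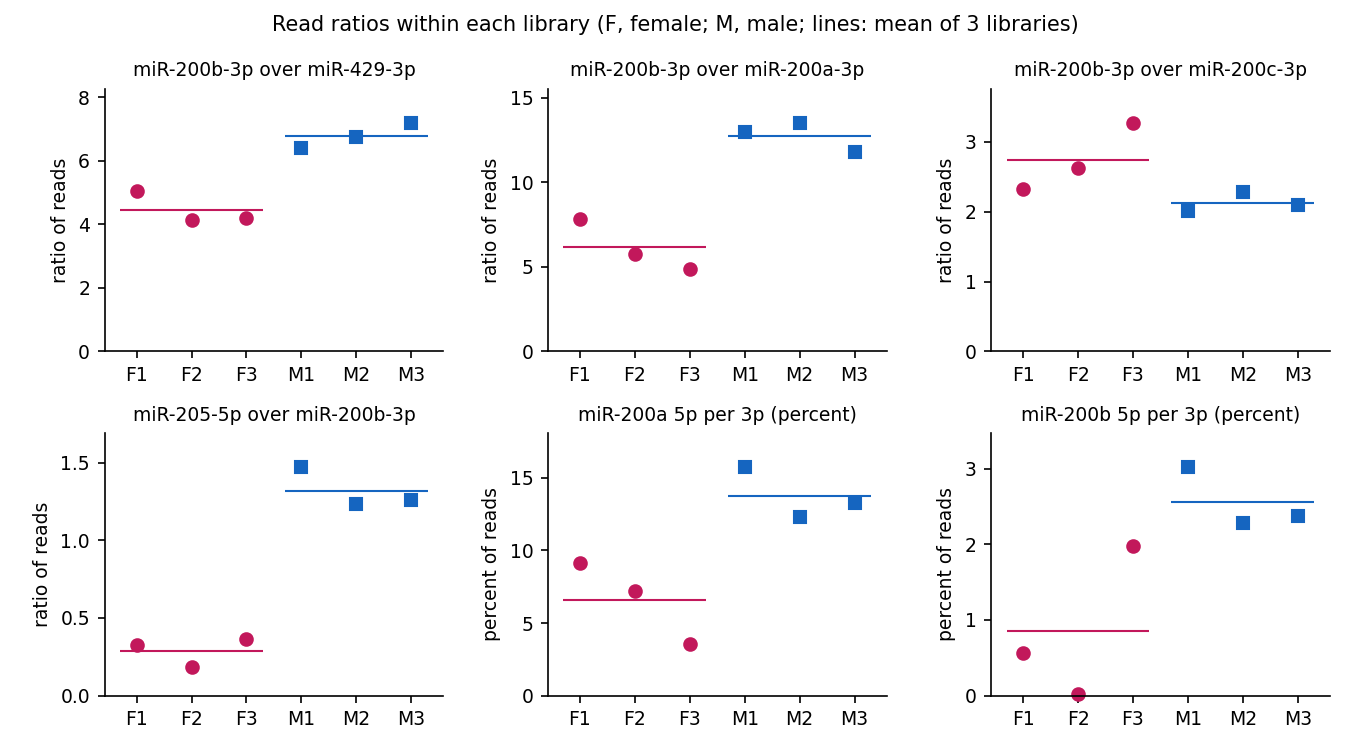
Read ratios of pairs of members within each library (y axes, from 0; ratios in the first 4 panels and percent in the last 2), for female libraries F1 to F3 (circles) and male libraries M1 to M3 (squares), with the mean of each sex as a line. In all 6 panels the sexes are separated, with females above males for miR-200b-3p over miR-200c-3p and below them in the other 5.

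The spread among libraries was itself unlike between the sexes. For the 7 members with a mean of at least 100 reads, the median coefficient of variation of CPM was 66.7% over the 3 female libraries and 5.96% over the 3 male libraries. Over all 553 miRNAs with such a mean it was 29.9% and 13.6%. For the 5 leading arms it ranged from 30.4% to 68.3% in females and from 3.39% to 8.97% in males. For these 5 arms, counting error was small beside the spread among females. At 1000 reads or more the exact 95% interval (Clopper-Pearson) was within 6.16% of the value, for 34 values of the members. In the male libraries of these arms it reached 3.23%, closer to the male spread. The female median of 66.7% is that of miR-200a-5p, which lies outside the 34 values in females, with 64 to 161 reads and intervals within 15.8% to 25.3%. Female values of miR-200b-5p lie outside them too. Such intervals cover counting error only, as reads without molecular identifiers are not independent molecules.

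A list of 9 miRNAs of other epithelia was read beside the members. Of the 9 (miR-203, miR-31, miR-184, miR-375 and the miR-183/96/182 cluster), 1 passed the threshold as higher in males and 1 as lower, against 3.21% and 5.27% of the 1120. For 4 of the 9 every male library lay above every female library, against 15.4% of the 1120, and the fitted value was positive for 6. Their median log2 fold change was 0.60, against -0.02 over the 1120. miR-203-3p, which promotes differentiation of the epidermis, was at 412, 301 and 430 CPM in females and at 1216, 1192 and 1261 CPM in males. All males lay above all females, and the fitted log2 value was 1.57 (0.19), at an adjusted p of 2.63e-06 in edgeR. The ratio of miR-205-5p to miR-203-3p was 0.430, 0.130 and 0.209 in females and 3.13, 2.85 and 2.76 in males, so that miR-203-3p was the more abundant of this pair in females and the less abundant in males.

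No other epithelial miRNA passed as higher in males in this fit, although miR-31-5p, miR-31-3p and miR-184-3p also had every male library above every female library. miR-31-5p, a miRNA of keratinocytes, was at 93.8, 48.7 and 63.7 CPM in females and 119, 94.0 and 126 CPM in males (fitted log2 value 0.60 (0.27), edgeR adjusted p = 0.205). With 1 RUVr factor miR-31-5p passed as higher in males, at a log2 value of 0.57 (edgeR adjusted p = 0.0346). miR-31-3p had no read in females and 35, 10 and 11 reads in males, or 0.228 to 1.87 CPM (edgeR adjusted p = 0.335). Its male mean was 31.4 times the floor of 3 counts over the summed female reads, which is not a firm bound. miR-184-3p, known from the cornea and lens, was at 7.36, 4.77 and 1.93 CPM in females and 8.83, 7.51 and 7.96 CPM in males (fitted log2 value 0.66 (0.83), edgeR adjusted p = 0.732). miR-203-5p, the other arm of the miR-203 hairpin, was at 0.203 to 3.05 CPM in females and 2.16 to 3.64 CPM in males and overlapped. miR-375-3p, known from endocrine and secretory epithelium, was at 172 to 260 CPM in females and 216 to 274 CPM in males and overlapped. miR-183-5p, miR-182-5p and miR-96-5p are made from a single cluster that is high in sensory cells of the ear, nose and eye. miR-183-5p was at 1810 to 4394 CPM in females and 2698 to 2804 CPM in males, and miR-182-5p at 655 to 1558 and 868 to 937 CPM. miR-96-5p was lower in males, at 118, 41.3 and 73.7 CPM against 36.6, 29.1 and 22.1 CPM (fitted log2 value -1.51 (0.35), edgeR adjusted p = 0.00454), a call that was lost without female library 1 and without male library 1. Summed, the 9 stood at 3404 to 6844 CPM in females and 5207 to 5373 CPM in males, most of it from miR-183-5p and miR-182-5p. The 6 miRNAs of choroid plexus and multiciliated cells, the epithelium inside the brain, stood at 1532 to 1679 CPM in females and 1430 to 1468 CPM in males. None of the 6 passed in edgeR. For miR-34c-5p every female library lay above every male library (fitted log2 value -0.72 (0.25), edgeR adjusted p = 0.0815). The other 5 overlapped between the sexes. In each of 4 other settings, 1 of the 6 passed as lower in males: DESeq2 (miR-34c-5p), 1 RUVr factor, at least 10 reads in every library, and without female library 2.

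Lists of miRNAs that mark other cell types were read beside the members. Over all 1120 miRNAs, 3.21% passed as higher in males and 5.27% as lower. All 5 tested of the 6 skeletal muscle miRNAs passed as higher in males, with a summed level of 392 to 1191 CPM in females and 5526 to 6154 CPM in males and a median log2 fold change of 2.78. The sixth, miR-208b-3p, had no read. Of the 8 mesenchyme miRNAs, 4 passed as higher in males and none as lower, with 8376 to 17026 CPM in females and 22609 to 26501 CPM in males and a median of 0.96. Of the 3 red blood cell miRNAs, 1 passed as higher (miR-486a-5p), with 646 to 1354 CPM in females and 1595 to 1972 CPM in males and a median of 0.18. That sum was almost wholly miR-486a-5p. The other 2 overlapped between the sexes: miR-451a at 0.18 (0.41) (edgeR adjusted p = 0.869) and miR-144-3p at -0.97 (1.13) (edgeR adjusted p = 0.703). Of the 8 neural miRNAs, 5 passed as lower in males and none as higher, with 230195 to 273868 CPM in females and 184193 to 212732 CPM in males and a median of -0.90. Most of that sum was miR-9-5p, which is not among the 5 (fitted log2 value -0.36 (0.33), edgeR adjusted p = 0.555). Leaving out male library 1 left 2 muscle, 2 mesenchyme, 2 neural and no red blood cell miRNAs past the threshold. Leaving out female library 3 left 2 muscle, 3 mesenchyme, 3 neural and no red blood cell miRNAs. Without female library 1 the red blood cell call was also lost and 3 neural miRNAs passed, as many as with total counts in place of TMM. Without female library 2, 5 mesenchyme miRNAs passed as higher and 2 as lower. Without male library 2, 3 neural miRNAs passed. The part that tissue taken with the brain, or its cell makeup, has in the members' levels was not tested. These lists were written with earlier results of these data known, and their counts are not independent evidence.

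**Figure D4:**
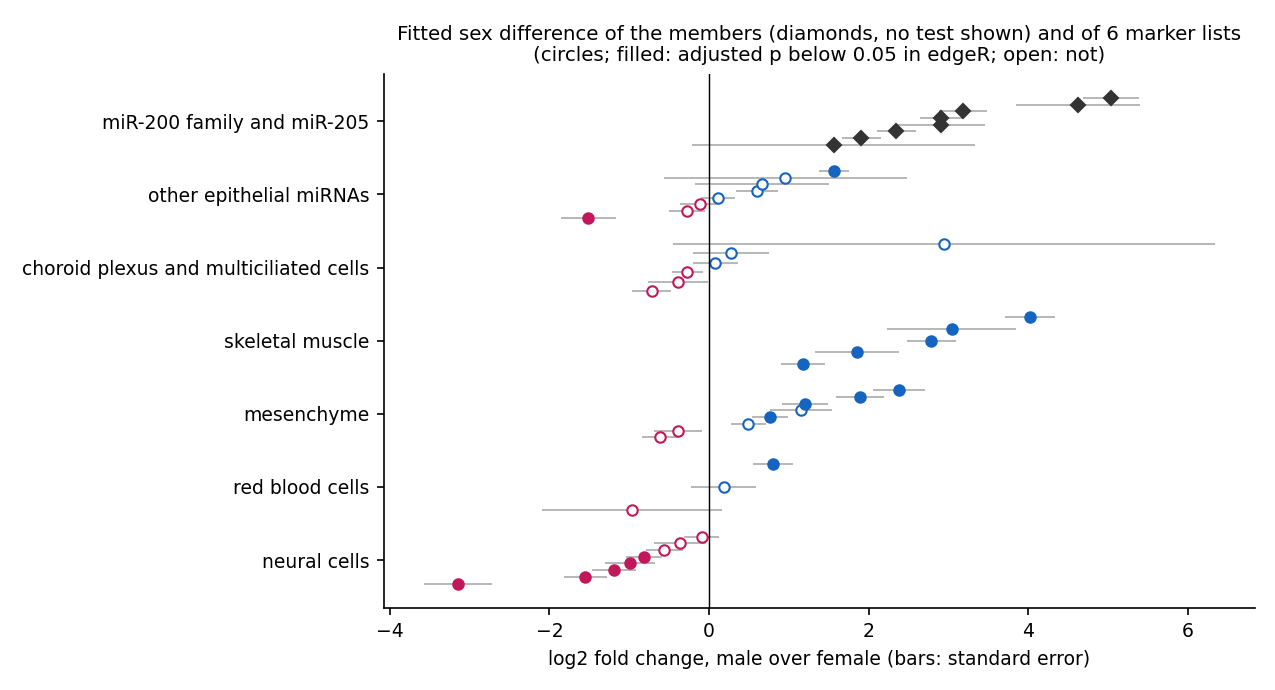
Log2 fold change, male over female, with its standard error, for 8 members (diamonds, no test shown) and the miRNAs of 6 lists (circles, filled where edgeR gave an adjusted p under 0.05). miR-141-5p and miR-31-3p, without a read in females, and miR-208b-3p and miR-200c-5p, without a read at all, are not drawn. The members lie between 1.56 and 5.04, in the range of the skeletal muscle miRNAs and beyond it.

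The miRNAs whose profile over the 6 libraries was most like that of the members were searched among the 546 non-members with a mean of at least 100 reads. Likeness was the root mean square (RMS) difference of log2(CPM + 1), each profile centred on its own mean. The 5 nearest to miR-205-5p were miR-206-3p, at 0.72, miR-133b-3p, miR-133a-3p, miR-214-3p and miR-493-3p, at 1.43, against a median of 2.74 over the 546. miR-206-3p, made in skeletal muscle and its progenitors, was at 382, 167 and 122 CPM in females and 3963, 4229 and 3534 CPM in males. Of the members, miR-200b-5p was nearer to miR-205-5p, at 0.62. miR-200c-3p lay at 1.01, and miR-200a-3p, at 1.71, was farther than miR-133a-3p at 1.17. In female library 2, miR-200b-5p (0.0337 CPM), miR-133b-3p (0.101 CPM) and miR-493-3p (0 CPM) were below the 1 CPM added. Their distances therefore rest in part on that added value.

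For the summed miR-200 arms, the nearest were miR-133a-3p, at 0.14, miR-214-3p, at 0.32, miR-193a-5p, at 0.51, miR-378a-3p and miR-483-3p, both at 0.60, against a median of 1.60. miR-133a-3p, a muscle miRNA, was at 285, 86.7 and 95.02 CPM in females and 1108, 1130 and 1189 CPM in males, with female library 1 above the other females as for the miR-200 arms. miR-214-3p, a miRNA of mesenchyme, was at 243, 52.2 and 91.3 CPM in females and 700, 686 and 745 CPM in males. By the same measure miR-429-3p lay at 0.31 and miR-200a-3p at 0.57 from the sum, so that miR-133a-3p was nearer to it than these members of the family. The points share libraries, depth and the gap between the sexes, and likeness is given as a description.

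**Figure D5:**
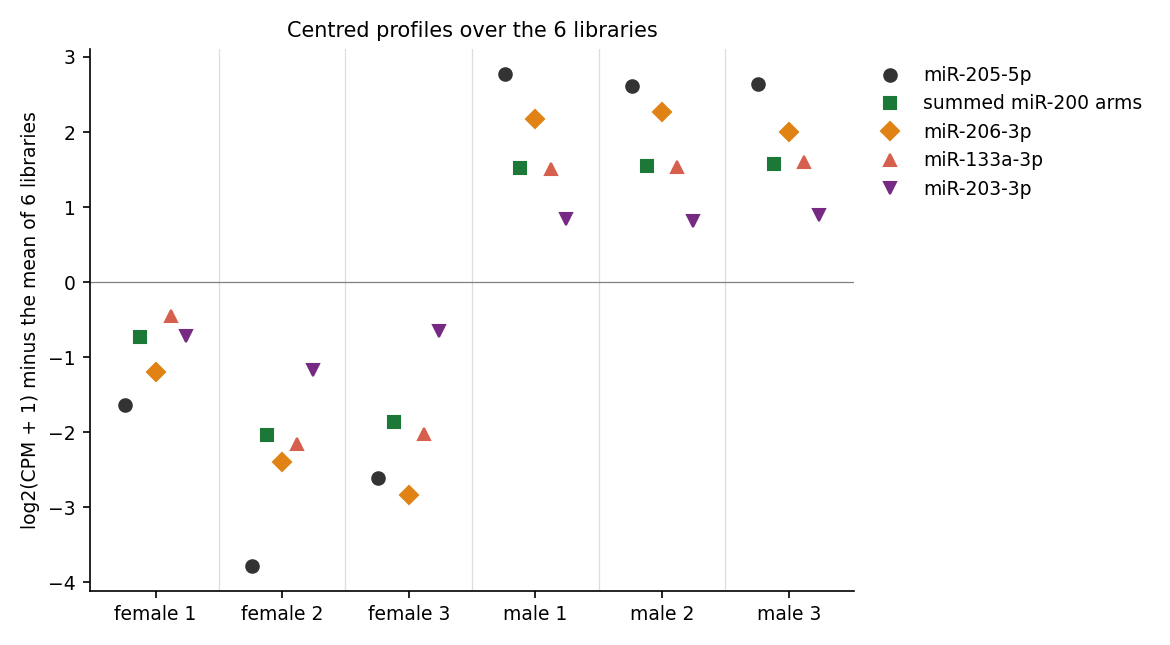
Profiles of miR-205-5p, the summed miR-200 arms, miR-206-3p, miR-133a-3p and miR-203-3p over the 6 libraries, as log2(CPM + 1) minus the mean of the 6. The summed miR-200 arms and miR-133a-3p nearly coincide in every library (RMS difference 0.14), including the high female library 1, and miR-205-5p has the widest range of the 5.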

How the data were processed

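Small RNA-seq was done on 3 female and 3 male libraries. The authors deposited a raw read count per mature miRNA and library, not normalized. Adaptors were trimmed with cutadapt 1.15 and reads mapped with Bowtie 1.2.1 (versions in the submitters' processing notes), then quantified in the miRDeep2 workflow against miRBase v.21 and mm9, per the study's methods.

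The total count was 14802675, 59362011 and 35802628 in female and 18682658, 43919305 and 23630675 in male libraries 1, 2 and 3. Levels are CPM of these totals. The tools were edgeR 4.0.16, DESeq2 1.42.0 and limma 3.58.1 in R 4.3.3. A miRNA was kept at 10 or more reads over all libraries together (1120 miRNAs). After TMM scaling, the sexes were compared by the quasi-likelihood test of edgeR, and p-values were adjusted by Benjamini-Hochberg over the 1120, with a threshold of 0.05. A standard error is the size of the log2 value over the square root of its F statistic. The procedure was tested on simulated counts. Replicates are pools.

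The members and lists were chosen with earlier results of these data known. Named miRNAs were the 10 members, the other arms of their hairpins, the members of 6 lists and the 5 nearest profiles to miR-205-5p and to the summed miR-200 arms. Loci are from GENCODE vM1 on NCBIM37, in which all 6 hairpins were identical to RefSeq. Alternatives were other scalings and filters, DESeq2, 1 RUVr factor, a replicate block, each library left out and, after the data were seen, a GC offset (loess, span 0.75), for which 474 of 553 abundant miRNAs (85.7%) had a sequence.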

Additional observations from a re-analysis of the deposited data

How the results depend on the processing

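Over 15 alternatives, 118 fitted member values kept their sign. Of these, 12 moved by more than the spread between libraries: with the GC offset, chosen after seeing the data, miR-200b-3p was 3.43 and miR-200a-3p 2.27. With the GC offset and the replicate block the values were 3.54, 2.29, 2.76 for miR-429-3p and 2.58 for miR-141-3p. With 1 RUVr factor miR-200b-5p was 5.70 and miR-141-3p 3.10. Leaving out a library gave 2.72 to 3.44 for miR-200b-3p, 2.58 to 3.59 for miR-200a-5p, 2.20 to 2.74 for miR-429-3p, 2.91 to 3.90 for miR-200c-3p and 2.74 to 3.49 for the log2 ratio of the summed miR-200 arms, highest without female library 1 in each. The members that passed the threshold were 7 in every setting that tested them, except 5 without male library 1. With at least 10 reads in every library, 6 of 6 tested passed. Because the members were chosen on this contrast, these counts describe the choice and are no evidence for the difference.

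Of 1120 miRNAs, 95 passed, 36 higher and 59 lower in males. With total counts in place of TMM these were 50 and 39, and the median of all miRNAs rose from -0.02 to 0.11, a shift of 0.12. RUVr gave 228 calls and leaving out a library 30 to 203: 30 without male library 1, 60 without female library 3 and 203 without female library 2. The other lists had 17 calls, and 7 to 21 with a library left out, with 7 without male library 1 and 10 without female library 3. Uncalled epithelial miRNAs changed sign for miR-375-3p (-0.029 to 0.32 with a library left out, lowest without female library 3), miR-182-5p (-0.48 to 0.16, highest without female library 1) and miR-183-5p (-0.36 to 0.38, highest without female library 1, 0.22 with the GC offset and 0.33 with the block added). The causes were not tested. Same-numbered libraries of the sexes had correlations of deviations of -0.04, 0.08 and 0.13. Pairs with unlike numbers ran from -0.19 to 0.15. No pairing by number was seen, but 3 libraries per sex are too few to exclude it. A replicate block gave 92 calls. Few reads limit the precision for miR-141-3p, miR-141-5p and the female values of miR-200b-5p.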
